A study of Mus musculus with 6 samples.

Results

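The polycystic kidney disease genes described here are 10 genes whose mutation gives kidney cysts in mouse or human, read from the rows of the gene table whose symbol equals Pkd1, Pkd2, Pkhd1, Ganab, Dnajb11, Bicc1, Glis2, Glis3, Cys1 or Nek8. All 10 were found, among 23873 rows in all. The assay was RNA-seq of the whole kidney at 8 weeks of age, in 2 groups of 3 libraries. The first group, here NICD2_Pax8, has the genotype R26NICD2/+pax8cre, in which a Rosa26 allele carries the active, intracellular part of the receptor Notch2 and the driver is Pax8, a gene of kidney tubule epithelium. The other group is labelled wild type, here WT. The titles of the WT samples begin with NICD, and whether these kidneys carried the allele without its driver is not known here. Neither is the kind of driver, for which the labels name pax8cre and the series title Pax-rtTA. The series is about cyst growth under Notch2 activation. Separate animals are not stated for the 6 libraries, so a p-value here sets a difference against a library-to-library spread that may be technical.

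Most of these genes act at, or on the way to, the primary cilium, a sensory antenna on the tubule cell. Polycystin-1 and polycystin-2, the products of Pkd1 and Pkd2, form a receptor and channel complex there, and cysts grow when the dose of functional complex falls. Polycystin-1 has to be folded and glycosylated in the endoplasmic reticulum (ER), where Ganab and Dnajb11 act. The other members encode a membrane protein (Pkhd1), an RNA-binding protein (Bicc1), transcription factors (Glis2 and Glis3) and cilium proteins (Cys1 and Nek8).

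In NICD2_Pax8 kidneys 3 of the 10 genes rose, Bicc1, Glis3 and Nek8, at 2.24, 2.03 and 1.94 times the WT mean, where 45.1% of all genes tested rose. Each of the 3 was also called higher after scaling for library composition, where 27.6% of all genes were. In the 6 scaled fits that left out 1 library the call held in 6 for Bicc1, 3 for Nek8 and 2 for Glis3. That of Nek8 was also lost with quantile normalization. None of the 10 fell in the values as deposited. After scaling Pkd1 and Dnajb11 fell, but neither call held throughout. The call of Pkd1 was lost in each of the 6 scaled fits that left out 1 library and with upper quartile scaling. It held with quantile normalization, with which that of Dnajb11 was lost. Pkd2, Pkhd1, Ganab, Glis2 and Cys1 did not pass the test in either form.

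The values are FPKM, fragments per kilobase of transcript, scaled to library size, as the authors deposited them. The depth is not in the file. Steps between low FPKM values gave an estimate of 15900000 to 17600000 fragments in NICD2_Pax8 and 14700000 to 15200000 fragments in WT libraries. With the longest transcript length in the file, a member rested on about 466 (Nek8) to 6937 (Ganab) fragments in NICD2_Pax8. In WT it rested on about 188 (Nek8) to 5398 (Pkd2). That length was 10519 bases for Pkd2, whose longest GENCODE transcript has 5219, and a shorter length would give fewer fragments. The row spelled NOTCH2, which has no coordinates, stood at 500.5 to 570.4 FPKM in NICD2_Pax8 and 1.27 to 3.75 FPKM in WT, and Heyl, a Notch target, at 191.6 to 216.1 against 0.94 to 2.26 FPKM. The 10 most abundant genes held 6.65% to 7.62% of summed FPKM in NICD2_Pax8 and 17.4% to 23.4% in WT. Median-of-ratios scaling, which divides a library by the median over genes of its ratio to the gene's geometric mean, used factors of 1.13 to 1.17 for NICD2_Pax8 and 0.826 to 0.946 for WT. The median log2 fold change of all 13500 genes tested was 0.32 as deposited and -0.0018 scaled, so a member near 0.32 as deposited moved with the median gene. WT replicate 1 held transcripts of other tissue: its 5 adrenal cortex markers summed to 3628.5 FPKM and its 5 adipocyte markers to 4172 FPKM, against 1.39 to 1.63 and 61.7 to 861.1 FPKM in the other 5 libraries. Results are therefore also given without it.

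Whole kidney was measured, so fewer cells of a type and less RNA per cell cannot be told apart. All 12 proximal tubule markers fell, with a sum of 421.9 to 5268 FPKM in NICD2_Pax8 and 61118 to 92875 FPKM in WT. Kap carried most of the WT sum, at 55466 to 84655 FPKM, against 59.93 to 4192 FPKM in NICD2_Pax8. Of 7 thick ascending limb markers 6 fell. Umod, the one that did not, carried most of that list's sum of 1058 to 1730 FPKM in NICD2_Pax8 and 1195 to 2411 FPKM in WT, and the other 6 summed to 93.8 to 151.3 FPKM in NICD2_Pax8 and 536.4 to 912.9 FPKM in WT. All 6 distal convoluted and connecting tubule markers, all 7 intercalated cell markers, 5 of 6 endothelial markers and 4 of 5 podocyte markers fell as well. Of 8 principal cell markers of the collecting duct 3 rose and 2 fell, with a sum of 129.2 to 142.4 FPKM in NICD2_Pax8 and 103.8 to 170.8 FPKM in WT. All 6 markers of dividing cells rose, with a sum of 189.7 to 221.8 FPKM in NICD2_Pax8 against 6.75 to 23.5 FPKM in WT. Of 6 macrophage markers 4 rose, with a sum of 1127 to 1591 FPKM in NICD2_Pax8 against 272.6 to 484.4 FPKM in WT. Cd74 carried most of that sum, at 934.9 to 1327 against 230.2 to 339 FPKM. The groups overlapped for Adgre1, at 5.63 to 7.55 against 1.89 to 10.95 FPKM, and for Csf1r, at 13.78 to 20.35 against 11.45 to 20.58 FPKM. No marker of these lists was at 0 in all 6 libraries. The part of these shifts in the members' values was not tested.

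All 10 members passed the filter of 1 FPKM or more in at least 3 libraries. The test was limma on log2(FPKM + 1), and a gene was called at a Benjamini-Hochberg adjusted p under 0.05 over all genes tested. As deposited, 3 of the 10 members were called, where 61.4% of all genes tested were. Those 3 were higher, where 45.1% of all genes were, and 0 members were called lower by limma, at an adjusted or an unadjusted p under 0.05, where 16.2% of all genes were lower. After scaling 5 were called, where 54.6% of all genes were, 3 of them higher, where 27.6% were, and 2 lower, where 27% were. The shares of members called are close to or below those of all genes, so the counts are no result about the members. As deposited every NICD2_Pax8 library lay above every WT library for 4 members (49.9% of all genes) and below for 0 (18.8%), and after scaling above for 3 (32.9%) and below for 3 (32.2%). The median log2 fold change of the members was 0.22 as deposited and -0.15 scaled, beside 0.32 and -0.0018 for all genes. In the authors' deposited table the same 5 members as after scaling had a DESeq2 q under 0.05, Bicc1, Glis3 and Nek8 higher and Pkd1 and Dnajb11 lower, where 42.8% of 19439 genes did, 21.3% higher and 21.5% lower. The authors' log2 fold changes come from the same 6 libraries and have a median of -0.04 over all genes, near that of the scaled fit. The match is therefore no independent check of the scaled calls.

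**Figure D1:**
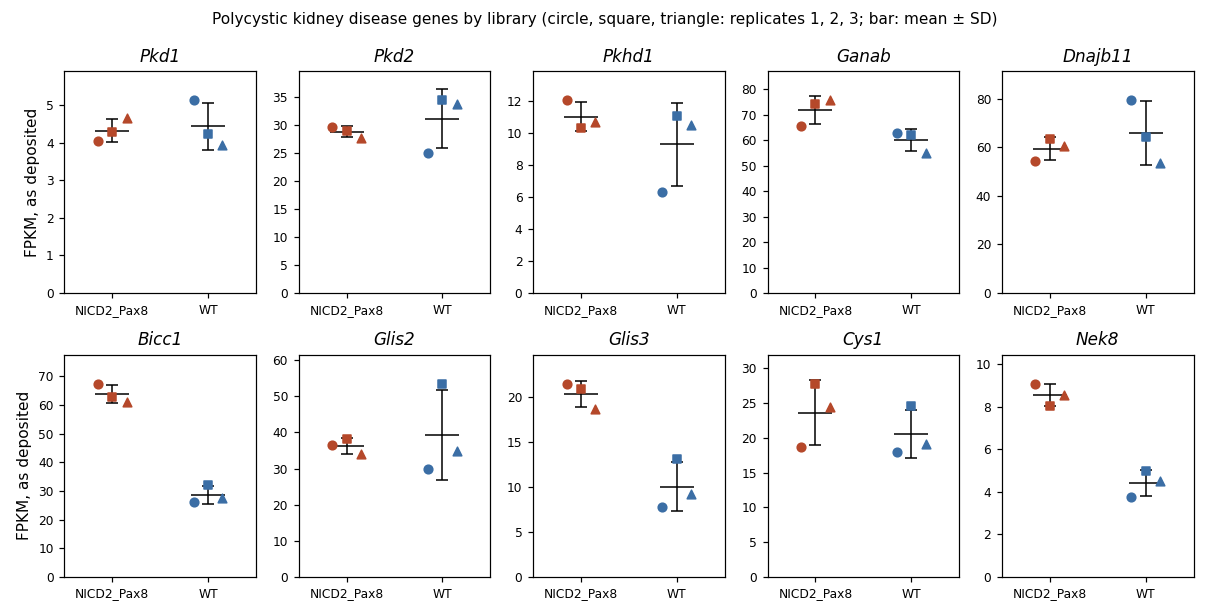
FPKM as deposited (y axis, from 0) of each of the 10 genes in the 3 NICD2_Pax8 libraries (left) and the 3 WT libraries (right), with the mean and SD over 3 libraries. For Bicc1, Glis3, Nek8 and Ganab every NICD2_Pax8 library lies above every WT library, and for the other 6 genes the groups overlap.

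Pkd1 (gene 18763; GRCm38 chromosome 17, 24548689 to 24596514, plus strand; 46 exons in its longest GENCODE transcript) encodes polycystin-1, the gene most often mutated in dominant polycystic kidney disease. It stood at 4.04, 4.29 and 4.66 FPKM in NICD2_Pax8 and 5.15, 4.24 and 3.95 FPKM in WT replicates 1 to 3. The groups overlapped, and the highest and the lowest value were both WT. The log2 fold change as deposited was -0.03 (SE 0.13, 95% interval -0.33 to 0.28, limma adjusted p = 0.867). Scaled, Pkd1 stood at 3.45, 3.78 and 4.11 FPKM in NICD2_Pax8 and 5.44, 4.87 and 4.78 FPKM in WT. All NICD2_Pax8 values then lay below all WT values, and the log2 fold change was -0.34 (SE 0.11, interval -0.59 to -0.08, limma adjusted p = 0.0355). This call was lost when any 1 library was left out, with limma adjusted p between 0.0599 and 0.0923. It was also lost with upper quartile scaling (limma adjusted p = 0.0867) and held with quantile normalization (limma adjusted p = 0.0115). The 3' end of Pkd1 shares 693 exonic bases with Tsc2 on the other strand, and without strand in the counts reads there cannot be told apart. Tsc2 averaged 21.1 ± 1.02 FPKM in NICD2_Pax8 and 16.7 ± 0.652 FPKM in WT (SD, n = 3 each).

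Pkd2 (gene 18764; chromosome 5, 104453982 to 104505819, plus strand; 15 exons) encodes polycystin-2, the channel subunit. It stood at 29.61, 28.92 and 27.68 FPKM in NICD2_Pax8 and 25.05, 34.46 and 33.76 FPKM in WT. Only WT replicate 1 lay below the NICD2_Pax8 values. The log2 fold change was -0.10 as deposited (SE 0.14, interval -0.43 to 0.23, limma adjusted p = 0.569) and -0.47 scaled (SE 0.17, interval -0.88 to -0.05, limma adjusted p = 0.0569). Without WT replicate 1 Pkd2 fell in both forms, by 0.24 as deposited (limma adjusted p = 0.0486) and by 0.66 scaled (limma adjusted p = 0.0014) on the log2 scale.

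Pkhd1 (gene 241035; chromosome 1, 20057779 to 20618082, minus strand; 67 exons) encodes fibrocystin, a large membrane protein whose loss gives recessive polycystic disease and whose transcripts are known from collecting duct and thick ascending limb. It stood at 12.06, 10.3 and 10.68 FPKM in NICD2_Pax8 and 6.3, 11.04 and 10.48 FPKM in WT. WT replicate 1 stood apart below the other 5 libraries, which lay close together. The log2 fold change was 0.26 as deposited (SE 0.20, interval -0.23 to 0.74, limma adjusted p = 0.308) and -0.09 scaled (SE 0.24, interval -0.65 to 0.47, limma adjusted p = 0.763). Without WT replicate 1 it was 0.03 as deposited (limma adjusted p = 0.834), and scaled it fell by 0.37 on the log2 scale (limma adjusted p = 0.0198). An antisense gene, 4930486I03Rik, shares 208 exonic bases with it in GENCODE.

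Ganab and Dnajb11 act in the ER. Ganab (gene 14376; chromosome 19, 8898057 to 8916742, plus strand), the catalytic subunit of glucosidase II, which trims glycans of new proteins, stood at 65.55, 74.13 and 75.93 FPKM in NICD2_Pax8 and 62.77, 62.09 and 55.05 FPKM in WT. The groups did not overlap as deposited, yet the log2 fold change of 0.26 (SE 0.10, interval 0.01 to 0.50, limma adjusted p = 0.0682) was under the median gene's. Scaled it was -0.12 (SE 0.10, interval -0.37 to 0.13, limma adjusted p = 0.363) and the groups overlapped.

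Dnajb11 (gene 67838; chromosome 16, 22857845 to 22879634, plus strand) encodes a co-chaperone of the ER chaperone BiP. It stood at 54.28, 63.36 and 60.78 FPKM in NICD2_Pax8 and 79.66, 64.51 and 53.7 FPKM in WT, with the highest and the lowest library both WT. As deposited the log2 fold change was -0.13 (SE 0.16, interval -0.50 to 0.24, limma adjusted p = 0.491). Scaled, the 3 NICD2_Pax8 libraries at 46.4, 55.9 and 53.6 FPKM lay below the WT libraries at 84.2, 74.1 and 65.0 FPKM, and Dnajb11 fell by 0.51 on the log2 scale (SE 0.13, interval -0.82 to -0.19, limma adjusted p = 0.0159). This call held in all 6 scaled fits that left out 1 library, with limma adjusted p from 0.0148 to 0.0482, but not with quantile normalization (limma adjusted p = 0.227).

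Bicc1 (gene 83675; chromosome 10, 70922830 to 71159690, minus strand; 21 exons) showed the largest rise of the 10. It encodes an RNA-binding protein of the cytoplasm whose mutation gives cystic kidneys in mice, and which acts on the Pkd2 messenger. It stood at 67.48, 62.82 and 61.19 FPKM in NICD2_Pax8 and 26.02, 32.06 and 27.38 FPKM in WT, with no overlap. Its mean was 2.24-fold higher, at 63.8 ± 3.26 FPKM in NICD2_Pax8 and 28.5 ± 3.17 FPKM in WT (SD, n = 3 each). The log2 fold change was 1.14 as deposited (SE 0.11, limma adjusted p = 2.38e-04) and 0.77 scaled (SE 0.12, limma adjusted p = 0.00235), and it passed in every fit that left out 1 library in either form. In GENCODE the antisense gene 4930533K18Rik shares 344 of its 5555 exonic bases.

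Glis2 and Glis3, zinc finger transcription factors of the same family, stood at different ratios in the groups. Glis3 (gene 226075; chromosome 19, 28258851 to 28680265, minus strand; 11 exons), whose loss gives cysts and neonatal diabetes, stood at 21.45, 20.84 and 18.65 FPKM in NICD2_Pax8 and 7.74, 13.06 and 9.23 FPKM in WT, with no overlap. It rose 2.03-fold, a log2 fold change of 0.98 as deposited (SE 0.18, limma adjusted p = 0.00347) and 0.62 scaled (SE 0.20, limma adjusted p = 0.0366). The scaled call held in 2 of the 6 fits that left out 1 library (limma adjusted p from 0.0103 to 0.0986). Those were the fits without WT replicate 1 and without WT replicate 2.

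Glis2 (gene 83396; chromosome 16, 4594320 to 4625141, plus strand; 7 exons), a nephronophthisis gene, stood at 36.66, 38.33 and 33.99 FPKM in NICD2_Pax8 and 29.91, 53.56 and 34.76 FPKM in WT. WT replicate 2 was high and the other WT libraries lay within or below the NICD2_Pax8 range. The log2 fold change was -0.07 as deposited (SE 0.21, interval -0.57 to 0.42, limma adjusted p = 0.778) and -0.44 scaled (SE 0.23, interval -0.99 to 0.10, limma adjusted p = 0.144). Without WT replicate 1 the scaled value fell by 0.67 on the log2 scale (limma adjusted p = 0.0186), and without WT replicate 2 the value as deposited was 0.17 (limma adjusted p = 0.314). In the file the span of Glis2 overlaps that of Pam16 on the other strand by 8481 bases, and Pam16 averaged 52.1 FPKM in NICD2_Pax8 and 52.6 FPKM in WT. By the GENCODE exons used here no gene overlaps Glis2, so no exonic bases are shared with Pam16 there.

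Nek8 and Cys1 encode proteins of the cilium. Nek8 (gene 140859; chromosome 11, 78166106 to 78176695, minus strand; 15 exons), a kinase of the inversin compartment mutated in the jck mouse, stood at 9.1, 8.04 and 8.55 FPKM in NICD2_Pax8 and 3.76, 4.96 and 4.53 FPKM in WT, with no overlap. It rose 1.94-fold, a log2 fold change of 0.82 as deposited (SE 0.12, limma adjusted p = 0.00141) and 0.50 scaled (SE 0.14, limma adjusted p = 0.0220). The scaled call held in 3 of the 6 fits that left out 1 library (limma adjusted p from 0.0206 to 0.0702), those without a WT library. It missed the threshold with quantile normalization (limma adjusted p = 0.0518).

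Cys1 (gene 12879; chromosome 12, 24665833 to 24681886, minus strand), which encodes cystin, a lipid-anchored cilium protein mutated in the cpk mouse, stood at 18.65, 27.81 and 24.43 FPKM in NICD2_Pax8 and 17.96, 24.52 and 19.12 FPKM in WT. The groups overlapped. The log2 fold change was 0.19 as deposited (SE 0.18, interval -0.24 to 0.62, limma adjusted p = 0.394) and -0.18 scaled (SE 0.20, interval -0.66 to 0.30, limma adjusted p = 0.480).

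**Figure D2:**
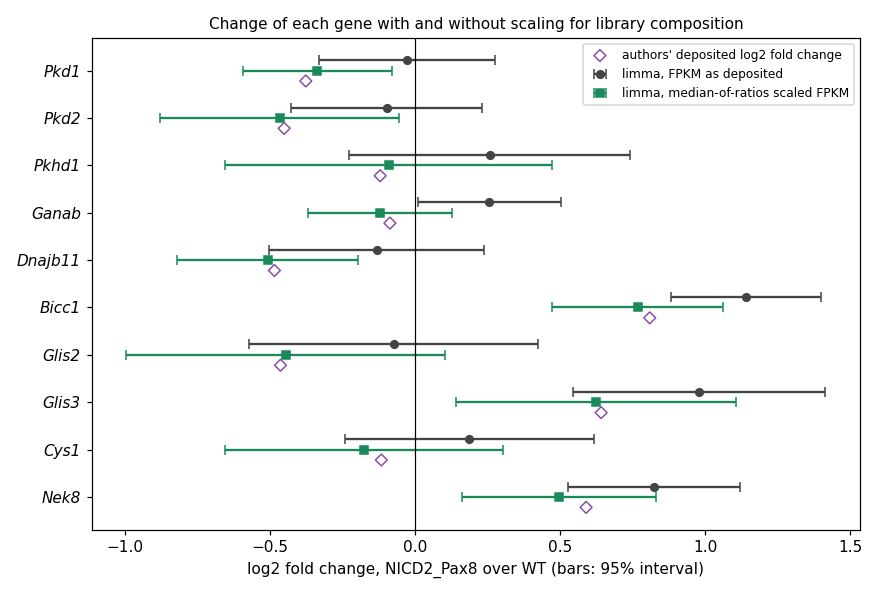
Log2 fold change of NICD2_Pax8 over WT (x axis) for each gene, from limma on FPKM as deposited (circles) and after median-of-ratios scaling (squares), with 95% intervals, and as given in the authors' deposited table (open diamonds). Scaling moves every gene to the left, Bicc1, Glis3 and Nek8 stay above 0 with intervals that exclude it, and the authors' values lie nearer the scaled ones.

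The authors' deposited table gives log2 fold changes of 0.81 for Bicc1, 0.64 for Glis3 and 0.59 for Nek8, and of -0.38 for Pkd1 and -0.48 for Dnajb11. For Pkd2 the authors' deposited table has -0.45 with a q of 0.0587. WT replicate 1 bears on several members at once: without it 3 members rose and 1 fell as deposited, where 49.3% and 16.9% of all genes did, and 3 rose and 4 fell after scaling, where 29.7% and 29.2% did. The 4 were Pkd2, Pkhd1, Dnajb11 and Glis2, and Pkd1 had an adjusted p of 0.0644 in that limma fit.

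The spread between libraries was wider in WT for 8 of the 10 genes, all but Ganab and Cys1, and much of it came from WT replicate 1. The median coefficient of variation of the members was 7.2% in NICD2_Pax8 and 17.0% in WT. Over all genes tested the medians were 11.4% in NICD2_Pax8 and 14.2% in WT, and 59.7% of genes varied more in WT. With WT replicate 1 left out, the WT median was 9.82% for the members and 7.81% for all genes. Then 6 of the 10 members varied more in WT, where 38.3% of all genes did. The WT spread then rests on fewer libraries than that of NICD2_Pax8. Glis2 and Glis3 stayed wide, at 6.03% and 7.25% in NICD2_Pax8 and 31.7% and 27.4% in WT, or 30.1% and 24.3% in WT without that library. Pkhd1, at 8.41% in NICD2_Pax8 and 27.9% in WT, and Pkd2, at 3.4% in NICD2_Pax8 and 16.9% in WT, turned, with 3.68% and 1.45% in the remaining WT libraries.

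FPKM is given per length, so levels can be set in order, although no source used here gives the transcript lengths the authors divided by. In NICD2_Pax8 the order of mean FPKM was Ganab (71.9), Bicc1 (63.8), Dnajb11 (59.5), Glis2 (36.3), Pkd2 (28.7), Cys1 (23.6), Glis3 (20.3), Pkhd1 (11.01), Nek8 (8.56) and Pkd1 (4.33). Of neighbours in this order, the library ranges overlapped for Ganab and Bicc1, Bicc1 and Dnajb11, Pkd2 and Cys1, and Cys1 and Glis3. In WT the order was Dnajb11 (66.0), Ganab (60.0), Glis2 (39.4), Pkd2 (31.1), Bicc1 (28.5), Cys1 (20.5), Glis3 (10.01), Pkhd1 (9.27), Pkd1 (4.45) and Nek8 (4.42). There the ranges overlapped for Dnajb11 and Ganab, Glis2 and Pkd2, Pkd2 and Bicc1, Glis3 and Pkhd1, and Pkd1 and Nek8. Bicc1 ranked 1, 3 and 2 of the 10 in NICD2_Pax8 replicates 1 to 3 and 4, 5 and 5 in the WT replicates.

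A ratio of 2 genes within a library does not change when the library is divided by 1 factor, as in median-of-ratios or upper quartile scaling. Quantile normalization can change it, and the ratios were not computed after it. Of partner genes 4 ratios are given, with p adjusted over the 5 computed. With 3 libraries against 3 the exact permutation test cannot give a p below 0.1. The Glis2 level was 1.71, 1.84 and 1.82 times the Glis3 level in NICD2_Pax8 and 3.86, 4.10 and 3.77 times in WT. The groups did not overlap and each was tight. The log2 ratio differed by -1.13 (SD 0.06 in each group; two-sided exact permutation p = 0.1, adjusted 0.25), a difference that dividing each library by 1 factor does not alter. The ratio of Nek8 to Anks6, the protein that activates this kinase, was 1.62, 1.16 and 1.45 in NICD2_Pax8 and 1.07, 0.886 and 0.930 in WT, a log2 difference of 0.55 with no overlap (exact permutation p = 0.1, adjusted 0.25).

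The other ratios overlapped between the groups over all 6 libraries. Pkd1 to Pkd2, the partners of one complex, was 0.136, 0.148 and 0.168 in NICD2_Pax8 and 0.206, 0.123 and 0.117 in WT, a log2 difference of 0.07 (exact permutation p = 0.9, adjusted 0.9). That overlap came from WT replicate 1 alone, and without it the 3 NICD2_Pax8 ratios lay above both WT ratios, with a log2 difference of 0.33. Ganab to Prkcsh, the non-catalytic subunit of glucosidase II, was 0.861, 0.744 and 0.865 in NICD2_Pax8 and 0.880, 1.00 and 0.807 in WT, a log2 difference of -0.12 (exact permutation p = 0.4, adjusted 0.5). Without WT replicate 1 this difference was -0.13 and the groups still overlapped, while those of Glis2 to Glis3 and of Nek8 to Anks6 were -1.14 and 0.62 with no overlap.

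**Figure D3:**
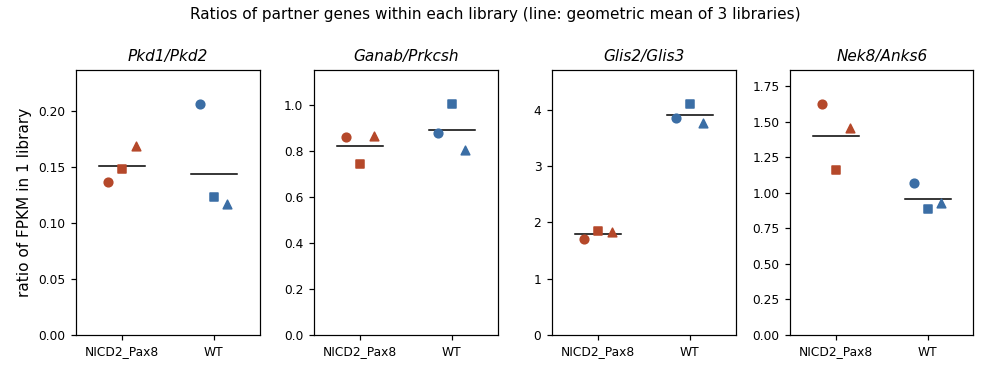
Ratio of the FPKM of 2 partner genes within each library (y axis, from 0) for the 3 NICD2_Pax8 libraries (left) and the 3 WT libraries (right), with the geometric mean as a line. The groups are apart for Glis2 to Glis3 and for Nek8 to Anks6 and overlap for the other 2 ratios, for Pkd1 to Pkd2 through WT replicate 1 (circle) alone.

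Promoter windows from RefSeq (GRCm38.p6, 250 bases before to 50 after the start) matched 8 of the 10 genes, all but Bicc1 and Glis2. Those of Pkd1 (chr17:24549700-24549999) and Pkd2 (chr5:104459207-104459506) lie wholly inside the gene spans given above, so they do not cover the first base of those spans. All windows were searched on both strands for 2 forms of a short motif, as a description only. GTGGGAA, a form of the site of RBPJ, the DNA-binding partner of Notch, was in 0 of the 8 windows and in 6.4% of 32851 windows of all genes. Its inner part TGGGAA, which every match of the longer form also holds, was in 1 of 8, that of Dnajb11, and in 25.6% of all. The window of Dnajb11 is shown with its match in capitals, as the reverse complement, beside those of Glis3 and Nek8, which rose and hold neither form. They lie at chr16:22857595-22857894 (Dnajb11, plus strand), chr19:28680028-28680327 (Glis3, minus) and chr11:78176617-78176916 (Nek8, minus), each written 5′ to 3′.
Dnajb11: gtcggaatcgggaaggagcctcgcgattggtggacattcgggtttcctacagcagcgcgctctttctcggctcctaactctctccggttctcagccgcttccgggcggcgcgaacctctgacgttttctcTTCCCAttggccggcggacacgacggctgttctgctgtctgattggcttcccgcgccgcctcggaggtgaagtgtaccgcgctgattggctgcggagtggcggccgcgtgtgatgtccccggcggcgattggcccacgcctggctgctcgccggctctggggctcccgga
Glis3: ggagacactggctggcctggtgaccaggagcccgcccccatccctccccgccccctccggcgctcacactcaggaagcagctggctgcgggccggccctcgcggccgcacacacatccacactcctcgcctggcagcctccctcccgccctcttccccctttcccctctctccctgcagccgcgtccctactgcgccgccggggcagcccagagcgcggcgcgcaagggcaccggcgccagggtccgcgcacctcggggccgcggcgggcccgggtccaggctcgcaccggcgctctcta
Nek8: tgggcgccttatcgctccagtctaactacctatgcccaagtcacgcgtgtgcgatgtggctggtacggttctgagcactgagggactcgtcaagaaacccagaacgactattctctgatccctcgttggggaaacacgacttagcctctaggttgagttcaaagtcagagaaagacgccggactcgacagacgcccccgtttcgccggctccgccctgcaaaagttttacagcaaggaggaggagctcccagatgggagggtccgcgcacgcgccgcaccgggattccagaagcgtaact
Counted from the transcript start, the match in Dnajb11 begins at position -120.

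Beyond the 10 genes, 53 other genes of cystic kidney disease or of polycystin transport were listed in 5 groups, and 45 passed the filter. As deposited 21 rose and 3 fell, with a median log2 fold change of 0.38, and after scaling 11 rose and 7 fell, with a median of 0.08. The share that rose was 46.7% as deposited and 24.4% scaled, beside 45.1% and 27.6% of all genes. The share that fell was 6.67% and 15.6%, beside 16.2% and 27% of all genes. Those named had the smallest p of their group or a log2 fold change of 2 or more in size.

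Among 8 ER genes of protein translocation and glycan assembly, 5 rose as deposited, and after scaling 3 rose and 1 fell. Alg8, a glucosyltransferase, stood at 14.9, 21.3 and 19.3 FPKM in NICD2_Pax8 and 7.40, 5.44 and 3.80 FPKM in WT (log2 fold change 1.60 as deposited, limma adjusted p = 0.00115, and 1.26 scaled). Sec61a1, the pore of the ER translocon, averaged 91.0 ± 6.36 FPKM in NICD2_Pax8 and 41.4 ± 7.68 FPKM in WT (SD, n = 3 each; log2 fold change 1.13, limma adjusted p = 7.27e-04). Both remained called after scaling (limma adjusted p = 0.00273 and 0.00231), while Ganab and Dnajb11, which belong to the same compartment, did not rise.

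Among 18 nephronophthisis and inversin compartment genes, 16 were tested and 6 rose as deposited, and after scaling 2 rose and 1 fell. Dcdc2a, a doublecortin-family protein of the cilium, stood at 77.2, 36.3 and 40.4 FPKM in NICD2_Pax8 and 2.17, 2.42 and 1.5 FPKM in WT, a log2 fold change of 4.04 as deposited (limma adjusted p = 9.74e-05) and 3.72 scaled. Cep164, a protein of the centriole appendages that start a cilium, averaged 7.69 ± 0.413 FPKM in NICD2_Pax8 and 3.65 ± 0.517 FPKM in WT (SD, n = 3 each; limma adjusted p = 9.46e-04). Under the filter were Cep290, at 0.42 to 1.77 against 0.85 to 1.03 FPKM, and Zfp423, at 0.09 to 0.52 against 0.52 to 1.84 FPKM.

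Of 7 paralogs of the polycystins and fibrocystin 6 were under the filter, with every library at 0.76 FPKM or less, so Pkd1, Pkd2 and Pkhd1 were the abundant members of their families in both groups. The one that passed, Pkdrej, a sperm-type polycystin relative, stood at 1.00, 1.02 and 2.24 FPKM in NICD2_Pax8 and 0.15, 0.11 and 0.12 FPKM in WT. It met the filter only through the group where it is high, so its test is not given. Without it 20 of 44 other genes rose as deposited and 10 of 44 scaled. The 20 still hold Nphp4, which in WT reached 1 FPKM only in replicate 1. It stood at 1.19, 1.29 and 1.29 FPKM in NICD2_Pax8 and 1.01, 0.59 and 0.42 FPKM in WT.

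In the group of other cystic kidney genes 7 of 13 rose and 1 fell as deposited, and 4 rose and 2 fell scaled. Muc1, a mucin of the apical membrane, averaged 48.7 ± 11.4 FPKM in NICD2_Pax8 and 6.07 ± 2.04 FPKM in WT (SD, n = 3 each; log2 fold change 2.83, limma adjusted p = 1.66e-04). Dzip1l, a protein of the ciliary transition zone mutated in recessive polycystic disease, averaged 31.6 ± 1.39 FPKM in NICD2_Pax8 and 6.41 ± 2.34 FPKM in WT (SD, n = 3 each; log2 fold change 2.19, limma adjusted p = 3.66e-04). Flcn, folliculin, was the gene that fell, at 9.59, 10.54 and 10.01 FPKM in NICD2_Pax8 and 20.9, 12.4 and 13.8 FPKM in WT (log2 fold change -0.57, limma adjusted p = 0.0364).

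Among 7 genes of polycystin delivery to the cilium 2 rose and 2 fell as deposited, and 1 rose and 3 fell scaled. Tulp3, the adaptor that brings membrane proteins such as polycystins into the cilium, averaged 13.3 ± 1.1 FPKM in NICD2_Pax8 and 17.5 ± 1.47 FPKM in WT, and Arl3, a small GTPase that unloads ciliary cargo, 45.1 ± 3.74 FPKM in NICD2_Pax8 and 57.6 ± 2.92 FPKM in WT (SD, n = 3 each). Their log2 fold changes were -0.37 and -0.35 as deposited (limma adjusted p = 0.0233 and 0.0197) and -0.73 and -0.72 scaled (limma adjusted p = 0.00364 and 0.00256). Arl13b, a small GTPase of the ciliary membrane, averaged 5.48 ± 1.27 FPKM in NICD2_Pax8 and 2.75 ± 0.373 FPKM in WT (SD, n = 3 each; log2 fold change 0.78, limma adjusted p = 0.00664). Gga1, an adaptor of the Golgi, averaged 29.1 ± 1.82 FPKM in NICD2_Pax8 and 22.6 ± 2.54 FPKM in WT (SD, n = 3 each) and rose as deposited (log2 fold change 0.36, limma adjusted p = 0.0281) but not scaled (log2 fold change -0.01, limma adjusted p = 0.938).

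**Figure D4:**
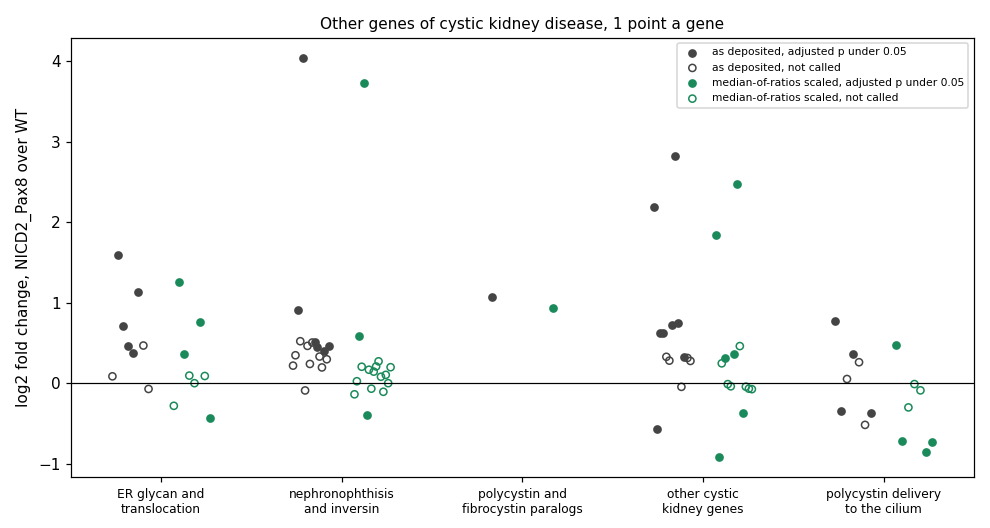
Log2 fold change of NICD2_Pax8 over WT (y axis) for the 45 other genes tested, 1 point a gene, in 5 groups, as deposited (dark) and after median-of-ratios scaling (green), filled where the limma adjusted p is under 0.05. Dcdc2a at 4.04, Muc1 at 2.83 and Dzip1l at 2.19 stand above the rest, and most others move toward or below 0 with scaling.

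Patterns over the 6 libraries like that of a polycystin or fibrocystin gene were searched for among genes tested, with predicted genes left out. The genes with the smallest root mean square difference of log2(FPKM + 1), each centred on its own mean, were picked, and no test was made. For Pkd1 these were Asb1 (0.025) and Sccpdh (0.039), for Pkd2 Tmem183a (0.045) and Myo19 (0.055), and for Pkhd1 Lpgat1 (0.051) and Fam102a (0.061), all in log2 units over 6 libraries. Like Pkhd1, Lpgat1 was lowest in WT replicate 1, at 15.1 FPKM against 22.7 to 28.4 FPKM in NICD2_Pax8 and 22.8 and 25.8 FPKM in the other WT libraries.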

How the data were processed

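Libraries were made from total RNA of frozen kidneys by Illumina TruSeq, per the labels' protocols. The authors deposited 1 table with FPKM per library, the mean FPKM of each group, and, per the file headers, log2 fold changes with p-values and DESeq2 q-values. Bowtie 0.12.2 and mm8 are named in the submitters' processing notes. Positions in the file are those of GRCm38 for 15565 of 17966 gene IDs matched to RefSeq (86.6%) and for all 10 members, and are read as GRCm38. No source used here gives the counting tool, its annotation version, strand or lengths. No library column went unused (0).

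Of 23873 rows, 4370 had no values. Genes with 1 FPKM or more in 3 or more libraries (13500) were tested with limma 3.58.1 (R 4.3.3, mean-variance trend, genotype only, two-sided) on log2(FPKM + 1). Folds are ratios of mean FPKM, and log2 fold changes are on the log2(FPKM + 1) scale, which understates changes of low genes. Scaling, other pseudocounts, no filter, a replicate block, each library left out in turn and a threshold of 0.01 were the alternatives. For the depth estimate, genes of a single transcript between 500 and 1500 bases were used, and 71.5% to 78.5% of values up to 8 fragments lay within 0.15 of a whole number. The step was chosen on the same values. Depth gives precision only, and no count test was made. The fit was run on simulated data in which few genes changed, equally up and down. That cannot show how the fit or the scaling behaves where most genes tested are called, as here. Named genes follow a fixed rule: the 10 members, ratio partners, the 2 smallest p per group and direction, log2 fold changes of 2 or more in size, and the 2 nearest patterns. Others were named after their values were seen. One ratio and one motif of the plan are not reported here. The spread without WT replicate 1, the limb marker sum without Umod and the counts without Pkdrej were added after seeing the data. Members and lists were chosen with earlier results of these data known.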

Additional observations from a re-analysis of the deposited data

How the results depend on the processing

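Bicc1, Glis3 and Nek8 kept a positive log2 fold change in every alternative run, and as deposited they were called in every fit that left out 1 library. Median-of-ratios scaling lowered Bicc1 from 1.14 to 0.768, Glis3 from 0.979 to 0.623 and Nek8 from 0.825 to 0.496. In the 6 scaled fits that left out 1 library the call held in 6 for Bicc1, 2 for Glis3 and 3 for Nek8. For several other members the sign or the call changed with the scaling. With median-of-ratios scaling Pkd1 was at -0.336 and Dnajb11 at -0.507, both then called lower, and Pkhd1 (-0.0906), Ganab (-0.119) and Cys1 (-0.177) turned negative without a call; 2 members, 7 other cystic kidney genes and 3642 genes in all were then called lower, and 11 and 3725 higher. With upper quartile scaling the values were -0.00364 for Pkhd1, -0.0256 for Ganab, -0.0861 for Cys1 and -0.414 for Dnajb11, the 1 member called lower. Of the other cystic kidney genes 12 were then higher and 4 lower, and of all genes tested 4213 were higher and 3226 lower. With quantile normalization Pkd1 (-0.432) was the 1 member called lower, Pkhd1 was at -0.117, Cys1 at -0.129 and Nek8 at 0.421 without a call; 11 other genes were higher and 6 lower, and 3866 genes in all were higher and 3558 lower. At an adjusted p of 0.01, 0 other cystic kidney genes were lower and 14 higher as deposited, where 1543 and 4507 of all genes tested were. With 1 FPKM added to both genes the log2 ratio of Glis2 to Glis3 differed by -1.05 in place of -1.13.

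Replicate numbers are shared by the groups, and the labels do not say whether same-numbered libraries were handled together. Their deviations from the group means had correlations of 0.0951, -0.0498 and 0.0056. With 1 library per number in each group, these values cannot show whether the libraries were paired. With the replicate block 3 members were called higher and 0 lower as deposited, where 5818 and 2164 of the 13500 genes tested were. With the block and median-of-ratios scaling 1 member, Dnajb11 (-0.507), 6 other genes and 3527 genes in all were lower, 8 and 3482 higher, and Pkhd1 (-0.0906), Ganab (-0.119) and Cys1 (-0.177) were negative.

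With 1 library left out, the log2 fold change ranged as deposited (and scaled) over -0.0926 to 0.064 (-0.387 to -0.28) for Pkd1, -0.24 to -0.0176 (-0.661 to -0.357) for Pkd2, 0.0284 to 0.389 (-0.37 to 0.0504) for Pkhd1, 0.197 to 0.321 (-0.172 to -0.0351) for Ganab, -0.268 to 0.0117 (-0.599 to -0.415) for Dnajb11, -0.245 to 0.165 (-0.668 to -0.197) for Glis2, 0.827 to 1.17 (0.422 to 0.826) for Glis3, 0.0661 to 0.342 (-0.313 to -0.00421) for Cys1 and 0.735 to 0.897 (0.362 to 0.579) for Nek8. The members called higher numbered 3 to 4 (1 to 3) and lower 0 to 1 (1 to 4), other cystic kidney genes higher 15 to 24 (7 to 11) and lower 0 to 3 (3 to 6), and all genes higher 5156 to 6661 (2993 to 4016) and lower 1826 to 2276 (2949 to 3936). Depth is known only by estimate, so no counting interval is given.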

Other observations

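Library NICD2_Pax8 replicate 1 stood above the other libraries of its group for several of the other cystic kidney genes, by more than for the 10 members. It was also the highest NICD2_Pax8 library for 5 of the 10 members, Pkd2, Pkhd1, Bicc1, Glis3 and Nek8, at 1.02 to 1.13 times the group's median. Cep290, a transition zone protein, stood at 1.77 FPKM in that library and 0.42 and 0.55 FPKM in NICD2_Pax8 replicates 2 and 3, against 0.85 to 1.03 FPKM in WT. Cep83, a centriole appendage protein, stood at 9.22 FPKM there and at 4.63 and 5.02 FPKM in the other 2, and Dcdc2a at 77.2 FPKM and at 36.3 and 40.4 FPKM. Of the 10 genes in these lists with the largest ratio of highest to median NICD2_Pax8 library, 9 were highest in that library, and the exception was Pkdrej. These genes were chosen after their values were seen, and no test was made. How often that library was the highest over all genes was not counted, so nothing particular to these genes is shown.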
